A study of Rattus norvegicus with 12 samples.

Results

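Vcam1, Icam1, Selp and Sele encode the adhesion molecules VCAM-1, ICAM-1, P-selectin and E-selectin, which the vessel wall uses to catch leukocytes. They were chosen by gene symbol in the annotation of the array platform. Each of the 4 genes had 1 probe, out of 13337 named genes on the array, and each gene ID was found in the RefSeq gene table of the rat assembly GRCr8. Vcam1 lies on chromosome 2 at 206723050 to 206742783, Icam1 on chromosome 8 at 27829688 to 27841618, Selp on chromosome 13 at 79009379 to 79044994, and Sele on chromosome 13 at 78935997 to 78945905. These are positions of the genes in that assembly, and where the probes sit within them is not stated.

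Leukocytes first roll along the endothelium on the selectins, which bind sialylated and fucosylated sugars on the leukocyte surface, and then stop when their integrins hold on to ICAM-1 and VCAM-1. P-selectin is stored in endothelial granules and platelets. The E-selectin and VCAM-1 genes are known to be switched on by cytokines such as tumour necrosis factor through the transcription factor NF-kB. ICAM-1 is present at a low level on many cell types and is raised by the same cytokines.

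The arrays measured messenger RNA of the BDX rat strain on 1-colour Illumina chips, 1 array per sample and 12 in all. Cells labelled as endothelial cells (EC) from aorta had been maintained with VEGF in all groups. After overnight starvation they were exposed for 24 hours, in 2% serum, to 10 µg/ml exosomes of AS-Tspan8 cells (2 arrays), exosomes of AS cells (2 arrays) or no exosomes (2 arrays). AS is a rat pancreas carcinoma line, and AS-Tspan8 is its derivative that stably expresses the tetraspanin Tspan8, a membrane protein that is also a component of exosomes. RNA of the exosomes themselves was measured on 2 arrays for AS-Tspan8 and 2 for AS, after donor cells were starved for 36 hours. The donor lines have 1 array each, AS-Tspan8 cells and AS cells, so any difference between these lines is a difference between single arrays of a line and its one derivative. How many clones stand behind AS-Tspan8 is not stated. The labels do not say whether 2 arrays of a group came from separate cultures, so p-values measure the spread between these arrays, which may be technical, and the small number of arrays limits their precision.

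The values are probe signals that were not normalized and a detection p-value, which compares a probe with negative control probes on the same array. A probe is called detected at a detection p-value under 0.01. Exosome arrays were much dimmer than cell arrays: summed signal was 2390577 to 2924133 with 2104 to 3604 probes detected on the 4 exosome arrays, 13714493 to 21955880 with 9269 to 9389 on the 2 tumour line arrays, and 10383650 to 12705558 with 8563 to 8923 on the 6 EC arrays. Tspan8 had a signal of 2036 in AS-Tspan8 cells and 75.1 in AS cells, where it was not detected, and it was not detected on any EC or exosome array. The EC arrays went against their label in part. Of 15 endothelial markers on the array, 3 were detected on each EC array (Egfl7, Clec14a and Ramp2), and Cdh5, Vwf, Nos3, Tek and Tie1 on none, while 12 to 14 of 14 fibroblast markers were detected. Each tumour line had 4 of the 15 endothelial markers detected. Egfl7 had signals of 131.1 to 156 in EC, 255 in AS-Tspan8 cells and 148.7 in AS cells. Clec14a had 125.2 to 180.2, 173.3 and 132 in the same order, and Ramp2 had 891.2 to 2365, 308.1 and 214.5. Clec14a was also detected on all 4 exosome arrays, at 146.5 to 204.3, while Egfl7 and Ramp2 were detected on none of them. Summed signals over the 6 EC arrays were 1911 to 3648 for the endothelial list, 68390 to 85010 for the fibroblast list, 2816 to 7511 for 8 smooth muscle markers, of which 3 to 4 were detected per array, and 1328 to 1809 for 13 leukocyte markers, of which 2 to 3 were. Cd14 (signals of 408.7 to 492.7) and Cd74 (170.1 to 434.6) were detected on 6 of 6 EC arrays and Fcer1g on 3, while Ptprc and Itgam were detected on none. EC is used below as the name of these samples.

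The promoters of Vcam1 and Icam1 are shown because these genes share a known NF-kB control and yet stood apart from each other in the tumour lines, as described further below. Both sequences are windows of the RefSeq promoter table for GRCr8, 250 bases before to 50 bases after the start site that this table uses, 5′ to 3′ in the direction of the gene. For Vcam1 that site is the start of the gene record given above, and for Icam1 it lies 157 bases inside the gene record, so the Icam1 window begins 93 bases upstream of the record. Vcam1 is from the minus strand at chr2:206742734-206743033 and Icam1 from the plus strand at chr8:27829595-27829894. Capitals mark matches on either strand to GGG followed by 5 bases of any kind and CC (below, the longer pattern) or to GGNNNTTCC, letter patterns that cover many forms of the NF-kB binding sequence.
Vcam1: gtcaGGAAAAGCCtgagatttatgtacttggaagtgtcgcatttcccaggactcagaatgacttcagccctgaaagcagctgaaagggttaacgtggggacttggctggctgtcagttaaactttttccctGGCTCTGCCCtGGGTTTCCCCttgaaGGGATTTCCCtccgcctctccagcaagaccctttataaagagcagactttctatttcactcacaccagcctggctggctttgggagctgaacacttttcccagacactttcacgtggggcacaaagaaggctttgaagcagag
Icam1: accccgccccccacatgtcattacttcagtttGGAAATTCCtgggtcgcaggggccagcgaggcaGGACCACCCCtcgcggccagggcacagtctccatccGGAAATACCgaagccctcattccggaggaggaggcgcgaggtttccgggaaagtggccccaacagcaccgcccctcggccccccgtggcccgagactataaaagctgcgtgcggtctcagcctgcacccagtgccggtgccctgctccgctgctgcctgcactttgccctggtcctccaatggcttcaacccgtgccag

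In the Vcam1 window the longer pattern matched in a close pair, GGGTTTCCCC at -108 to -99 and GGGATTTCCC at -93 to -84 from the start site of the table, with a further match at -119 to -110. The other pattern, GGNNNTTCC, matched at -246 to -238 and, inside the second of the pair, at -93 to -85. In the Icam1 window GGNNNTTCC matched at -218 to -210 (GGAAATTCC) and at -149 to -141, and the longer pattern matched at -185 to -176. A TATAAA was found at -60 to -55 in Vcam1 and at -53 to -48 in Icam1. Over 27457 rat promoters of the same length, 48.5% held the longer pattern, 18.3% held GGNNNTTCC and 14.3% held TATAAA on either strand, so the longer pattern in particular is common. The window listed for Sele began 267 bases inside its gene record and is not shown, and the table had no entry for Selp. A match is a description of these letters and not evidence of binding.

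In EC, both members of the immunoglobulin family were present and both selectins were not. Vcam1 and Icam1 were detected on 6 of 6 EC arrays, as were 45.4% of named genes. Icam1, the ligand of the leukocyte integrins LFA-1 and Mac-1, had signals of 12470 and 11060 in EC with AS-Tspan8 exosomes, 15050 and 9954 in EC with AS exosomes, and 11540 and 9524 in untreated EC. The highest Icam1 value was in replicate 1 of EC with AS exosomes, and the 3 groups overlapped. Vcam1, the ligand of the integrin VLA-4, had signals of 1855 and 1431 in EC with AS-Tspan8 exosomes, 2176 and 1657 in EC with AS exosomes, and 2095 and 1777 in untreated EC. Replicate 1 was brighter than replicate 2 in each of the 3 groups for both genes.

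Selp had signals of 63.82 and 62.62 in EC with AS-Tspan8 exosomes, 91.47 and 71.54 in EC with AS exosomes, and 65.57 and 76.94 in untreated EC, with detection p-values of 0.08 to 0.782. Sele had signals of 83.4 and 71.44 in EC with AS-Tspan8 exosomes, 91.46 and 81.34 in EC with AS exosomes, and 65.15 and 84.66 in untreated EC, with detection p-values of 0.0339 to 0.284. No selectin value on an EC array was separable from the negative controls, so Selp and Sele have only an upper bound there and no fold between EC groups.

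**Figure D1:**
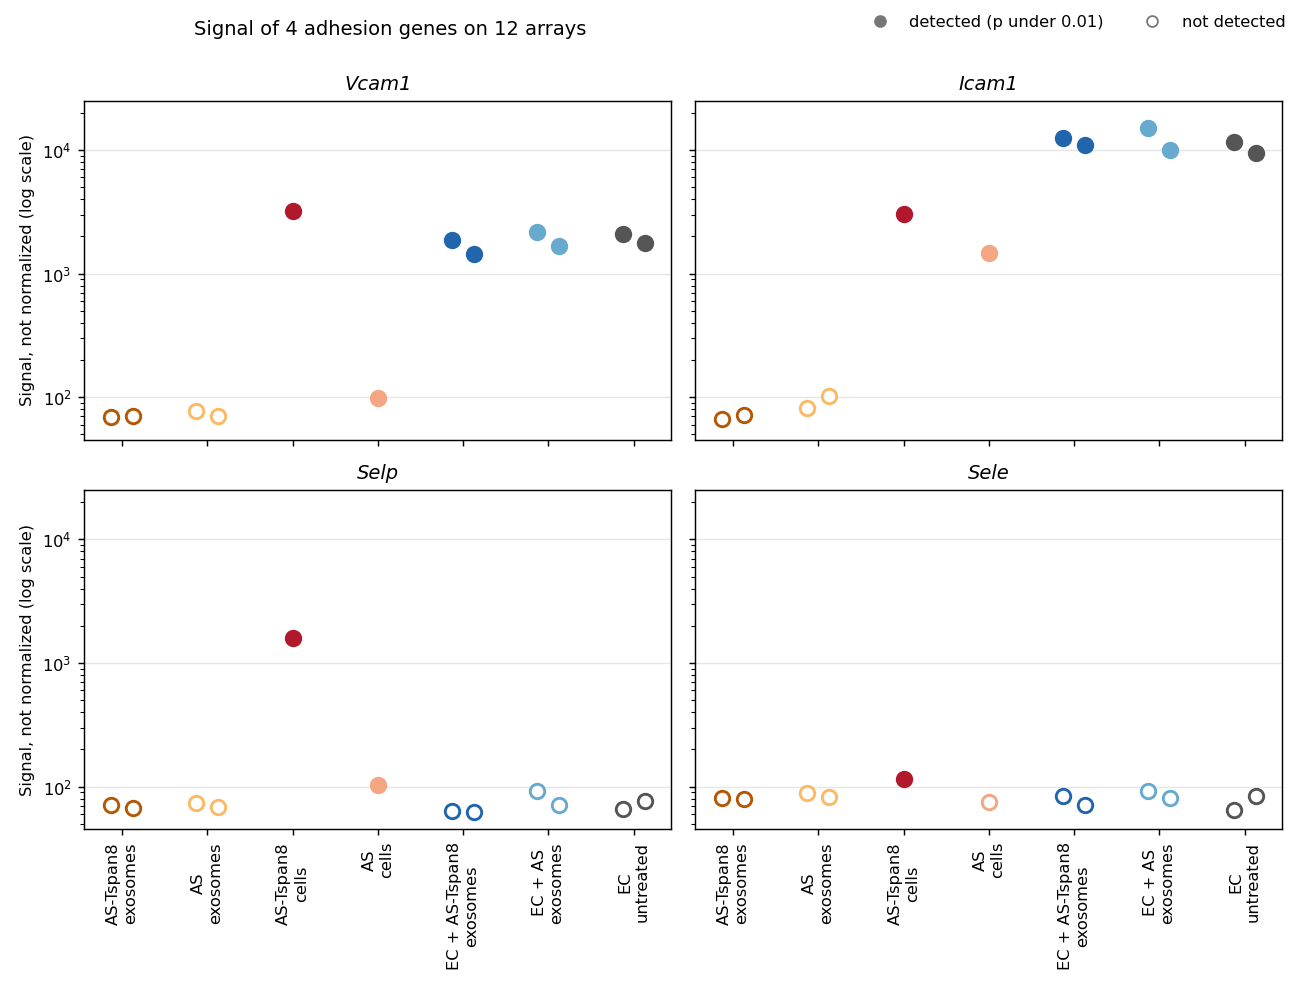
Signal, not normalized, of Vcam1, Icam1, Selp and Sele (y axis, log scale) on each of the 12 arrays (points, in 7 groups along the x axis); filled points were detected and open points were not. Vcam1 and Icam1 were detected on all 6 EC arrays and Selp and Sele on none, Vcam1 and Selp stood high in AS-Tspan8 cells, and no gene was detected on the 4 exosome arrays.

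The exosome treatments were compared after background correction and quantile normalization of the 6 EC arrays, on the log2 scale, with limma's moderated test adjusted over 9025 features. Neither Vcam1 nor Icam1 passed adjusted p 0.05 in any of the 3 comparisons, and 0% of features did (0 of 9025 in each). At an unadjusted p under 0.05 there were 117 features for AS-Tspan8 exosomes against untreated EC, 62 for AS exosomes against untreated EC and 51 between the exosome kinds. In these fits, which leave out the replicate number, each count is a smaller share of the 9025 features than 0.05. That is the share that would be reached with no difference in any feature. With the replicate number as a term in the fit, the counts were 483, 166 and 188 in the same order. The 483 lie above that share and the other counts below it, and still 0 features passed adjusted p 0.05. The comparisons with untreated EC share those control arrays, and the 3 groups share one estimate of the spread.

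Icam1 differed by 0.32 ± 0.19 (log2, SE) between EC with AS-Tspan8 exosomes and untreated EC, with limma's adjusted p of 1 and a 95% interval of -0.14 to 0.78. After normalization both EC arrays with AS-Tspan8 exosomes lay above both untreated arrays, where 25.1% of features did not overlap between these groups in one direction or the other. With AS exosomes the Icam1 difference from untreated EC was 0.30 ± 0.19 with a 95% interval of -0.16 to 0.76 (adjusted p = 0.999), and the groups overlapped, as did all but 23.2% of features. Between AS-Tspan8 and AS exosomes it was 0.02 ± 0.19 with a 95% interval of -0.44 to 0.48 (17.7% of features did not overlap there), and it turned to -0.06 without scaling between arrays and to -0.14 without replicate 2 of EC with AS exosomes. Within replicate number 1 the Icam1 difference from untreated EC was 0.17 for AS-Tspan8 exosomes and 0.32 for AS exosomes, and within number 2 it was 0.47 and 0.28 in that order. In bulk samples such as these, the number of cells that hold a transcript and its amount per cell cannot be told apart.

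Vcam1 differed from untreated EC by -0.10 ± 0.20 with AS-Tspan8 exosomes (95% interval -0.59 to 0.38, limma's adjusted p = 1) and by -0.01 ± 0.20 with AS exosomes (95% interval -0.50 to 0.47, adjusted p = 0.999). Between the exosome kinds it differed by -0.09 ± 0.20 (95% interval -0.58 to 0.40). Its direction is not settled: it turned positive without replicate 1 of untreated EC, at 0.07 for AS-Tspan8 exosomes and 0.16 for AS exosomes, and without replicate 2 of the treated cells, at 0.02 and 0.11 in that order. Between the exosome kinds it turned to 0.03 without replicate 2 of EC with AS-Tspan8 exosomes and also without replicate 1 of EC with AS exosomes. The step between replicate numbers was larger than the treatment differences of Vcam1, with number 2 below number 1 by -0.24 in EC with AS-Tspan8 exosomes, -0.24 in EC with AS exosomes and -0.34 in untreated EC on the log2 scale. For Icam1 that step was 0.02, -0.32 and -0.28 in the same groups.

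Marker levels varied among these arrays, and the ranges of the groups overlapped. Both the highest and the lowest fibroblast sum came from EC with AS-Tspan8 exosomes, in replicates 1 and 2 in that order. The summed fibroblast signal was 68390 to 85010 in EC with AS-Tspan8 exosomes, 81300 to 83800 in EC with AS exosomes and 79150 to 83860 in untreated EC, and the summed endothelial signal was 1911 to 2825, 2232 to 3648 and 2643 to 2934 in the same order. None of 14 fibroblast markers passed the test. With AS-Tspan8 exosomes 12 of the 14 were lower than in untreated EC, with a median of -0.34 on the log2 scale against 0 over all features. Their part in the values of Vcam1 and Icam1 was not tested.

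**Figure D2:**
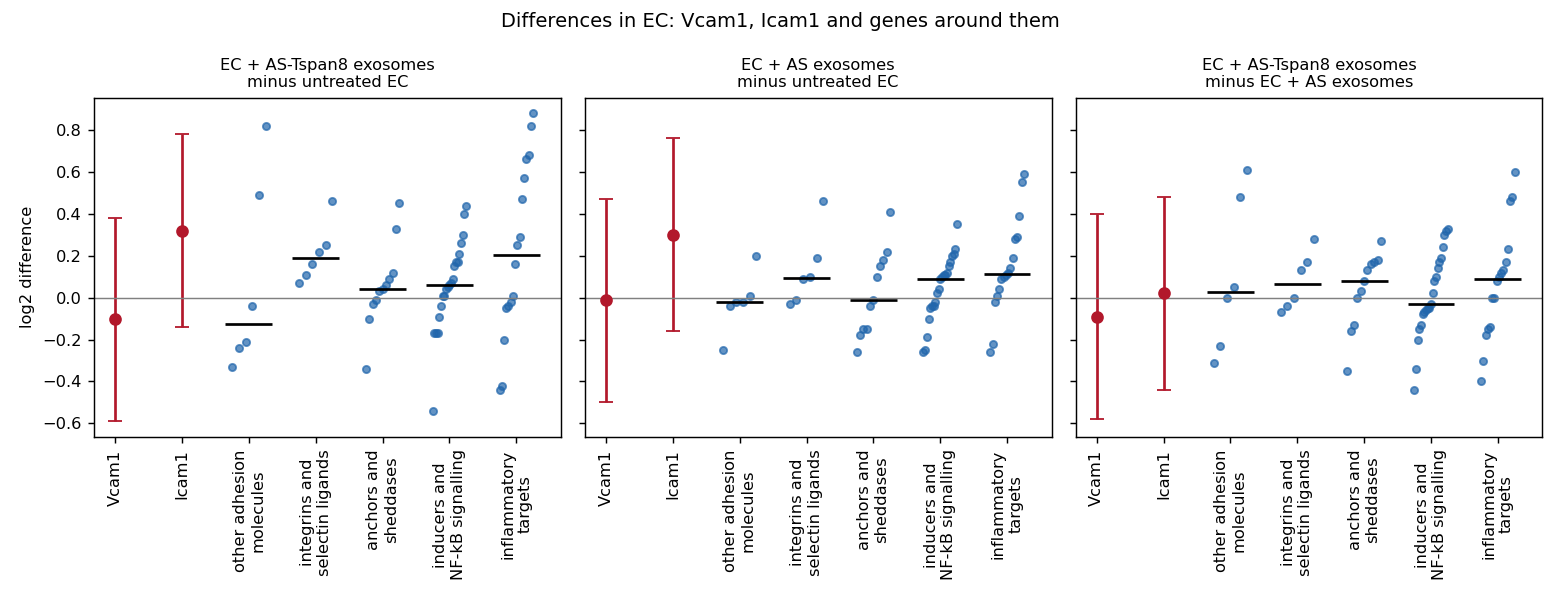
log2 differences between EC groups (y axis) in 3 comparisons (panels): Vcam1 and Icam1 with 95% intervals (red) and each tested gene of 5 lists (blue points, black line at the list's median). Both intervals include 0 in every panel, and the list medians lie between -0.12 and 0.20.

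The genes around the 4 adhesion molecules gave no call either: 0 of the tested genes of 5 lists passed adjusted p 0.05 in any EC comparison, beside 0 of 9025 features. Among 12 other adhesion molecules of the leukocyte cascade, 6 were tested. Alcam, which binds CD6 on T cells, was 0.82 ± 0.43 higher on the log2 scale with AS-Tspan8 exosomes than in untreated EC and 0.20 ± 0.43 higher with AS exosomes, at adjusted p of 1 and 0.999. F11r, the junctional molecule JAM-A, had the lowest value with AS-Tspan8 exosomes at -0.33 ± 0.87, and Cd47, an integrin-associated protein, had the lowest with AS exosomes at -0.25 ± 0.21.

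Of 14 leukocyte integrins and selectin ligand enzymes, 6 were tested. Their median was 0.19 with AS-Tspan8 exosomes and 0.09 with AS exosomes, each against untreated EC. St3gal6, a sialyltransferase that helps to build selectin ligands, differed by 0.46 ± 0.44 in both. The integrin subunits Itga4, Itgal and Itgam, which belong to the leukocyte side of the contact, were not detected on any EC array. Of the 11 anchors and sheddases of adhesion molecules, all on the array were tested, with medians of 0.04 with AS-Tspan8 exosomes and -0.01 with AS exosomes. Flna, the actin crosslinker filamin A, differed by 0.45 ± 0.27 with AS-Tspan8 exosomes, and Msn, the membrane-actin linker moesin, by -0.34 ± 0.33. With AS exosomes Adam10, a membrane protease, differed by 0.41 ± 0.23 and Rhoa, a small GTPase, by -0.26 ± 0.33. Between the exosome kinds the highest and lowest tested genes of these lists were Alcam at 0.61 ± 0.43, F11r at -0.31 ± 0.87, St3gal4 at 0.28 ± 0.26, Fut4 at -0.07 ± 0.24, Flna at 0.27 ± 0.27 and Adam10 at -0.35 ± 0.23.

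Upstream of the 4 genes, 21 of 30 inducers and NF-kB signalling genes were tested. The cytokine genes Tnf, Il1a and Il1b were not detected on any EC array, while the receptor genes Tnfrsf1a and Il1r1 were detected on 6 of 6. Nfkb1, a subunit of NF-kB, differed from untreated EC by 0.44 ± 0.27 with AS-Tspan8 exosomes, and Klf2, a flow-induced transcription factor, by -0.54 ± 0.30. With AS exosomes Nfkb2 differed by 0.35 ± 0.16 and Jun by -0.26 ± 0.39. Between the exosome kinds the extremes were Jun at 0.33 ± 0.39 and Klf2 at -0.44 ± 0.30. The list medians were 0.06 with AS-Tspan8 exosomes and 0.09 with AS exosomes.

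Of 22 other inflammatory target genes, 16 were tested. They had a median of 0.20 with AS-Tspan8 exosomes, with 10 of 16 higher than in untreated EC, and 0.12 with AS exosomes, with 13 of 16 higher, where 4568 and 4501 of 9025 features were higher. Ptgs2, which encodes the prostaglandin-forming enzyme COX-2, differed by 0.88 ± 0.43 with AS-Tspan8 exosomes, and F3, tissue factor, by -0.44 ± 0.54. The chemokine gene Cxcl2 differed by 0.59 ± 0.37 with AS exosomes and F3 by -0.26 ± 0.54. Between the exosome kinds Ptgs2 differed by 0.60 ± 0.43 and Plau, the urokinase gene, by -0.40 ± 0.35. None of these values passed limma's test at adjusted p 0.05.

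In the tumour lines the 4 genes behaved differently from each other. Vcam1 had a signal of 3229 in AS-Tspan8 cells and 98.31 in AS cells, Selp 1593 in AS-Tspan8 cells and 103.4 in AS cells, Icam1 3041 in AS-Tspan8 cells and 1468 in AS cells, and Sele 116.2 in AS-Tspan8 cells and 74.68 in AS cells. In AS-Tspan8 cells each of the 4 was detected, Sele only just, at a detection p-value of 0.00727. In AS cells Vcam1 and Selp were detected near the floor, both at 0.00364, Icam1 was detected clearly, and Sele was not detected, at 0.176. Of all named genes 51.3% were detected in AS-Tspan8 cells and 50.7% in AS cells.

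AS-Tspan8 cells gave 1.6 times the summed signal of AS cells, so the lines were set side by side after normalization of the 8 cell arrays together. With 1 array each there is no test and no replicate check. Of 9972 features, 3.59% were higher in AS-Tspan8 cells by at least 1 on the log2 scale and 2.60% were lower by as much, with a median of -0.02. A feature needed detection on at least 2 of the 8 cell arrays. Genes detected in AS-Tspan8 cells alone among them, such as Tspan8, are therefore left out of these shares and of the ranks below. Vcam1 was 5.06 higher, a 33.3-fold difference and the sixth highest of the 9972. Selp was 3.83 higher, a 14.2-fold difference and the eleventh highest. Icam1 was 0.15 higher (1.11-fold), at rank 3055, and Sele was at least 1.02-fold higher against the detection floor of the AS array. Without scaling between arrays, where the median of all features was 0.83, the same differences were 6.13 for Vcam1, 4.93 for Selp and 1.07 for Icam1, and Sele was at least 1.53-fold higher. Vcam1 and Selp were near the detection floor in AS cells. Without background correction their differences were 3.92 and 2.83, and in the authors' deposited processed table they were 3.56 and 2.52, which is 11.8-fold and 5.73-fold.

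The named genes ranked just above Vcam1 in this comparison were Il33, Cyp19a1, Cldn2 and Reg1a. Il33, an alarmin cytokine, had signals of 4027 in AS-Tspan8 cells and 105.5 in AS cells, and Cldn2, a tight junction claudin, had 4790 and 112.3 in the same order. Between Vcam1 and Selp lay Cfi, a complement protease, at 4.68, and Anxa1, an annexin, at 4.56, with Col15a1 at 3.76 just below Selp. These neighbours were named after their values were seen.

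**Figure D3:**
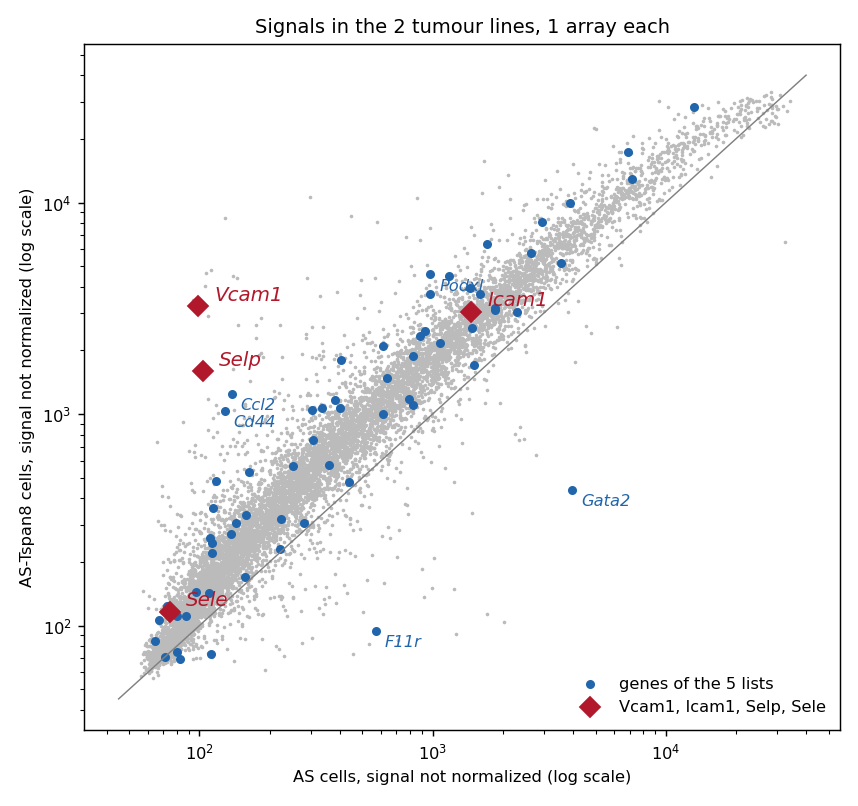
Signal, not normalized, of the features tested (grey) in AS-Tspan8 cells (y axis) against AS cells (x axis), both on log scales, with the 4 adhesion genes as red diamonds and the genes of 5 lists in blue; the line marks equal signals. Vcam1 and Selp lie far above the cloud, which itself runs above the line, while Icam1 and Sele lie within it.

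The differences in the other adhesion genes ran both ways. Among 8 other adhesion molecules with values, 2 were higher in AS-Tspan8 cells by at least 1 on the log2 scale and 1 was lower, with a list median of -0.12. Cd44, a hyaluronan receptor that can also carry selectin ligands, was 2.66 higher (signal 1037 in AS-Tspan8 cells and 128.1 in AS cells). Podxl, a sialomucin related to CD34, was 1.42 higher (4576 and 977 in the same order). F11r was at least 12.5-fold lower, with 94.38 in AS-Tspan8 cells, where it was not detected, and 571.9 in AS cells. Of 6 genes of the integrin and selectin ligand list none reached 1 either way, and their median was 0.40. Of 11 anchors and sheddases, Ezr, the membrane-actin linker ezrin, reached 1.32.

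Among 22 inducers and NF-kB signalling genes, 2 were higher by at least 1, Klf4 at 1.09 and the TNF receptor gene Tnfrsf1a at 1.08, and 1 was lower, the transcription factor gene Gata2 at -4.33. The NF-kB subunit genes Rela and Nfkb1 were at 0.46 and 0.44, and Nfkb2 was at -0.52. Among 17 other inflammatory targets 5 were higher by at least 1: Ccl2 at 2.76, Cxcl2 at 1.70, Ccl5 at 1.32, Sod2 at 1.12 and Ccl20 at 1.10. Cxcl11 (signal 251.8 in AS-Tspan8 cells and 73.12 in AS cells) and Il6 (156.5 and 67.58) were detected in AS-Tspan8 cells only. The filter left both out of the 17, which include Cxcl12 and Csf3, detected in neither line. Ptgs2 was not detected in AS-Tspan8 cells and was at least 1.51-fold lower there than in AS cells. The median of the 17 was 0.70, against -0.02 over all features. A gene near 1 on this scale is sensitive to the scaling, since leaving out the scaling shifted all features by a median of 0.83.

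Against untreated EC, both tumour lines together had less Vcam1 and Icam1 and more Selp, on the mean of the 2 lines. The lines were assumed to vary like the EC arrays, and line, tissue and cell type differ at once in this comparison and cannot be told apart. Serum and exposure are recorded for EC and not for the lines, so culture may differ as well. Of 9972 features 53.9% passed adjusted p 0.05, 29.1% higher and 24.7% lower in the tumour lines, so a call is common here. Without scaling 5565 were higher and 1142 lower in the tumour lines, against 2904 and 2468 with it, and with median scaling the split was 2365 and 3636. Icam1 fell by 3.11 ± 0.18 on the log2 scale (limma's adjusted p = 5.39e-05) and Vcam1 fell by 3.10 ± 0.19 (adjusted p = 7.61e-05). Selp, detected on 0 of 2 untreated EC arrays, was at least 4.31-fold higher on the mean of the lines (adjusted p = 6.38e-05), with measured log2 means of 7.46 in the lines and 4.63 in untreated EC. It entered this fit only through the 2 tumour arrays on which it was detected, so a difference was built into its selection and the p-values of Selp here and below lend no support of their own.

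The mean over the lines hides that they differ, so each line was also set against untreated EC, a comparison added after the data were seen. Icam1 was lower in both, at -3.03 ± 0.22 in AS-Tspan8 cells (limma's adjusted p = 0.000205) and -3.18 ± 0.22 in AS cells (adjusted p = 0.000152), beside 44.3% and 44.7% of features called in these comparisons. Its raw signals of 3041 in AS-Tspan8 cells and 1468 in AS cells lay below those of 11540 and 9524 in untreated EC. Vcam1 was lower in AS cells, at -5.63 ± 0.24 (adjusted p = 2.95e-05). In AS-Tspan8 cells the Vcam1 difference from EC was -0.57 ± 0.24 with a 95% interval of -1.15 to 0.01 (adjusted p = 0.0979). That direction is not settled, since without scaling it was 0.76 ± 0.29 (adjusted p = 0.0471), with a raw signal of 3229 in AS-Tspan8 cells above 2095 and 1777 in untreated EC.

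Selp was at least 16.2-fold higher in AS-Tspan8 cells than in untreated EC (limma's adjusted p = 3.31e-05), and at least 1.14-fold higher in AS cells (adjusted p = 0.0143), where the bound is the EC mean of the lowest signal among detected probes on each array. The measured log2 means were 9.38 in AS-Tspan8 cells and 5.55 in AS cells, against 4.63 in untreated EC and a detection floor of 5.35. The call for AS cells was lost without replicate 1 of untreated EC (adjusted p = 0.0502) and without replicate 2 (adjusted p = 0.0578). Sele in AS-Tspan8 cells, at a measured log2 mean of 5.21, was below that EC floor, so no fold is given.

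None of the 4 genes was detected on any of the 4 exosome arrays, while 22.2% of named genes were detected on at least 1 of them and 6.37% on all 4. Vcam1 had signals of 68.65 and 70.0 in AS-Tspan8 exosomes and 77.84 and 70.73 in AS exosomes. Icam1 had 66.77 and 72.19 in AS-Tspan8 exosomes and 81.61 and 102.6 in AS exosomes, where the last had a detection p-value of 0.0133, just outside the limit. Selp lay between 66.54 and 72.99 and Sele between 79.84 and 88.65 over the 4 arrays. Each value was close to the negative controls, so the exosome kinds cannot be ordered for these genes.

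The depth of the exosome arrays sets how much can be read from this. Of the probes at or above the Vcam1 signal in AS-Tspan8 cells, 51.9% were detected on at least 1 AS-Tspan8 exosome array, and the share was 49.9% at or above Icam1 and 36.6% at or above Selp. In the AS line 91.8% of probes at or above the Icam1 signal of AS cells were detected on at least 1 AS exosome array, and Icam1 was not. Its signal of 102.6 on replicate 2 of AS exosomes was close to 103.9, the lowest detected signal on that array. At or above the AS signals of Vcam1 and Selp the shares were 38.9% and 39.6%. Each share takes in all brighter probes, so the gene itself lies at the dim end of its set. The share among probes near the gene's own signal was not computed and may be lower, also for Icam1 in the AS line.

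Set against cells with limma over 9421 features and with the line as a term, Icam1 was at least 1.37-fold lower in exosomes (adjusted p = 0.0279), with measured log2 means of 5.25 in exosomes and 7.56 in cells. No bound could be given over both lines for Selp (adjusted p = 0.0401) or Vcam1 (adjusted p = 0.0658), whose cell means lay below the floor of the normalized exosome arrays. The 3 genes passed the filter only through the cell arrays, so these p-values lend no support of their own, and the call of Icam1 was lost without that filter (adjusted p = 0.059). Donor starvation is recorded for the exosome arrays and not for the cell arrays, so culture may differ too. In this comparison of exosomes with cells 60.8% of features passed, 16.1% higher and 44.6% lower in exosomes. The calls split into 1518 higher and 4206 lower with quantile normalization, 433 higher and 8139 lower without scaling, and 3966 higher and 2746 lower with median scaling. Without scaling, where the median over all features was -3.63 on the log2 scale in exosomes against cells, the bounds were at least 48.2-fold lower for Icam1, 8.87-fold for Vcam1 and 6.5-fold for Selp. In the AS-Tspan8 line alone they were at least 1.31-fold lower in exosomes for Vcam1 and 1.24-fold for Icam1 after normalization, with none for Selp, and at least 80.1-fold, 75.3-fold and 38.8-fold without scaling for Vcam1, Icam1 and Selp. The call of Icam1 rested on single arrays: without AS-Tspan8 cells no feature passed (0 of 9421), and Icam1 lost its call there (adjusted p = 0.227). Each of the AS-Tspan8 exosome arrays, replicate 1 of AS exosomes and the AS cell array also decided it, with adjusted p over all 6 omissions of 0.00124 to 0.227.

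**Figure D4:**
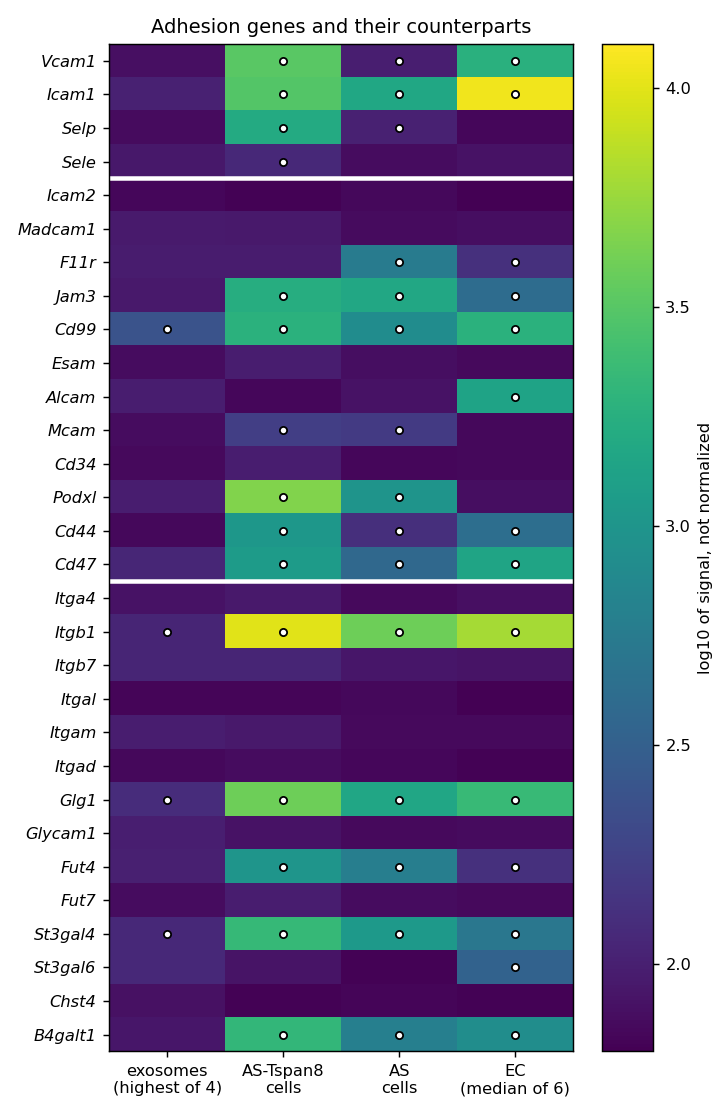
Signal, not normalized (colour, log10), of Vcam1, Icam1, Selp and Sele (top block), 12 other adhesion molecules (middle) and 14 integrins and selectin ligand genes (bottom), as the highest of 4 exosome arrays, the AS-Tspan8 and AS cell arrays and the median of 6 EC arrays; colours compare samples along a row, not genes. Dots mark detection on at least 1 exosome array, on the cell array, or on at least 2 EC arrays, and the top block has no dot in the exosome column.

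Other genes of the cascade were seen in exosomes. Cd99, an adhesion molecule of leukocyte passage between endothelial cells, was detected on 3 of 4 exosome arrays at signals of 94.16 to 243.7 over the 4, and the chemokine genes Cxcl1 and Cxcl10 on 4 of 4, at 174.1 to 612.8 and 103.5 to 264.2. In the donor cells Cd99 had a signal of 1872 in AS-Tspan8 cells and 826.3 in AS cells. Nfkbia, the gene of the NF-kB inhibitor, was detected on 3 of 4 exosome arrays at 95.23 to 423.5. Cd44 and Podxl, like Vcam1 and Selp, were detected on none.

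The genes whose log2 values were most like those of a member are given as a description, by Pearson's r among named genes. Over the 6 EC arrays and 6060 genes, which share normalization and the step between replicate numbers, those most like Icam1 were Impa1 (0.99), Hps1 (0.978), Pdhx (0.967) and Zfp622 (0.964), with 0.479% of genes over 0.9. Those most like Vcam1 were Dynll1 (0.996), Tmem106c (0.993), Cdc42ep5 (0.991) and Coq10b (0.99), with 4.95% of genes over 0.9. Vcam1 and Icam1 correlated with each other at 0.34 over these arrays.

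Over the 8 cell arrays and 7355 genes, r mostly follows the steps between EC and the lines. Those most like Vcam1 were Rpl10 (0.994), Anxa1 (0.987), Spsb1 (0.985) and Lcn2 (0.985), genes that were lower in AS cells than elsewhere, and 1.51% of genes were over 0.9. Anxa1 had a signal of 4380 in AS-Tspan8 cells, 144.9 in AS cells and 3124 to 6367 in EC. Those most like Selp were Slc6a6 (0.999), Cldn2 (0.996), Cyp26b1 (0.995) and Reg1a (0.994), which stood high in AS-Tspan8 cells alone among the 8 arrays, with 2% of genes over 0.9. Those most like Icam1 were Cdyl2, Snrpn, Parp3 and Sirpa (each 0.997), brighter in EC than in either line, as part of 17.6% of genes over 0.9.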

How the data were processed

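RNA of 12 samples was hybridised to 1-colour (Cy3) Illumina rat arrays, per the labels' protocols. Per the file headers, the authors deposited an intensity for every probe and array before normalization, with its detection p-value. Scanner software and any background subtraction are not given in the sources used here. An authors' deposited processed table, also intensity on a linear scale, served as an alternative, and its normalization is not stated.

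Here intensities were background corrected (normexp, controls inferred from detection p-values), given an offset of 16, quantile normalized and log2 transformed with limma 3.58.1 in R 4.3.3, separately for 6 EC arrays, 6 tumour cell and exosome arrays, and 8 cell arrays. Probes with detection p under 0.01 on at least 2 arrays were kept, with the brightest probe per named gene. Unnamed probes (8730 of 22523) stayed as features. Tests were limma's lmFit and eBayes with Benjamini-Hochberg adjustment over all features. Folds against undetected groups are bounds, which set the brighter mean against the lowest detected signal of the dim arrays (or the probe's own, if higher). The fits were also run on simulated data with independent normal noise, without replicate pairs or a detection floor. That run checked the estimates of set differences and cannot vouch for the p-values in these data.

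Replicate numbers come from the labels. Deviations of same-numbered EC arrays correlated at 0.495, 0.375 and 0.555, so equal numbers were taken as pairs in EC. The fits left the number out. Named genes were the 4 members, the highest and lowest gene of each list in each EC comparison (detected throughout the higher group), and the 4 genes of highest correlation with each member. List genes in the tumour lines were named where they reached 1 on the log2 scale, and others as background to the pathway. The members and lists were chosen with earlier results of these data known. Alternatives were other scalings, background settings, filters, the replicate block and left-out arrays.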

Additional observations from a re-analysis of the deposited data

How the results depend on the processing

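Over 467 combinations of a result and an alternative, 411 kept direction and side of the threshold (or stayed within the replicate spread, or within 1.5 times for counts), 19 lost a call, 2 gained one, 19 moved and 16 reversed. In EC no alternative gave a call. There, leaving out each array in turn moved Vcam1 between -0.27 and 0.07 with AS-Tspan8 exosomes and between -0.18 and 0.16 with AS exosomes, each against untreated EC, and between the exosome kinds it moved Vcam1 between -0.21 and 0.03 and Icam1 between -0.14 and 0.18. Icam1 was -0.06 between the exosome kinds without scaling. With the replicate block (the pairing of EC numbers) Icam1 was 0.32 ± 0.16 with AS-Tspan8 exosomes (limma's adjusted p = 0.806), 0.30 ± 0.16 with AS exosomes (adjusted p = 0.999) and 0.02 ± 0.16 between them, Vcam1 was -0.10 ± 0.14, -0.01 ± 0.14 and -0.09 ± 0.14 in the same order, and no call changed. The replicate block was not run against tumour cells, whose labels carry no number. Between AS-Tspan8 and AS exosomes deviations of same-numbered arrays correlated at -0.412, and 0 features passed with the block and 0 with crossed numbers.

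Scaling mattered most for exosomes. Between AS-Tspan8 and AS exosomes 304 features passed with median scaling, against 0 in the setting reported (660 at an unadjusted p under 0.05), and the undetected members changed sign: Icam1 was 0.41 with median scaling, Vcam1 -0.13 and Selp -0.09 without scaling, and Vcam1 ran from -0.02 to 0.03 without single arrays. Exosomes against cells gave fitted values, which set undetected exosome arrays against cells and are no folds, of 0.18 for Vcam1 and 0.60 for Selp with median scaling. The count of 5724 features ran from 0 to 7179 without single arrays: 0 without AS-Tspan8 cells, 2631 without AS cells, and 3427 and 3660 without replicate 1 and 2 of AS-Tspan8 exosomes. There Icam1 lost its call with no filter on detection (adjusted p = 0.059), Selp lost its own under that setting (0.0781), an offset of 50 (0.0643), the authors' processed table (0.0698) and 12 arrays normalized together (0.0509), and Vcam1 gained one without scaling (adjusted p = 0.00632) and without AS cells (adjusted p = 0.0385). For AS-Tspan8 cells against untreated EC 7296 features passed without scaling, where Vcam1 turned to 0.76. For AS cells Selp lost its call with median scaling, no background correction and the authors' processed table (adjusted p = 0.0836, 0.0509 and 0.0666).

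Between AS-Tspan8 and AS cells Vcam1 was 6.13 without scaling, 3.92 without background correction, 4.24 with an offset of 50, 3.56 in the authors' processed table and 3.75 with 12 arrays normalized together. Selp was 4.93, 2.83, 3.11, 2.52 and 2.73 under these settings, and the lowest log2 difference that the AS detection floor allows for Sele was 0.61, 0.02, 0.02, 0.22 and 0.02, against 0.03 in the setting reported, with no bound under median scaling. Icam1 was 1.07 without scaling. The causes of these changes were not tested. Each member was undetected on the 4 exosome arrays.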
